A study of Mus musculus with 12 samples.

Results

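The genes described here are those of the respiratory chain and of the mitochondrial genome, in myeloid cells of the mouse brain. A gene was a member when its number maps to the mitochondrial chromosome, or when it is a protein-coding nuclear gene whose symbol starts with Nduf and one of the letters a, b, c, s or v, with Uqc, with Cox and a digit from 4 to 8, or with Atp5, or is one of the 4 Sdh genes a to d. This rule took 136 of the 36528 gene numbers in the tables, 37 mitochondrial and 99 nuclear. The mitochondrial members were 13 genes for messenger RNAs (mRNAs), 2 for ribosomal RNAs (rRNAs) and 22 for transfer RNAs (tRNAs). The nuclear members were 39 genes of complex I, 4 of complex II, 8 of complex III, 20 of complex IV, 17 of complex V and 11 for assembly factors.

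RNA was sequenced from Cd11b-positive cells sorted from the brains of male mice 6 months old. One group of 6 libraries came from hMAPT-P301S mice, which carry a human tau gene with a mutation of inherited frontotemporal dementia (P301S), and the other 6 came from non-transgenic littermates (NonTg). The labels used here give no promoter, strain, litter or batch, and do not tie a library to a single animal, and all p-values reflect differences among these 12 libraries, which may be technical. The comparison asks how the cells differ between the genotypes, and the contrast made here sets the mitochondrial genome beside the nuclear genes that supply the same complexes.

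The respiratory chain passes electrons from NADH and succinate through complexes I, II, III and IV to oxygen, and complex V (ATP synthase) uses the proton gradient this builds to make ATP. Complex II is made from nuclear genes alone, while complexes I, III, IV and V combine proteins made inside the mitochondrion with a larger number imported from the cytosol. The mitochondrial genome is transcribed as long RNAs from both strands, which are cut at the tRNAs that lie between the other genes. A separate shorter transcription unit has been proposed to supply the rRNAs and the tRNA genes beside them.

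Total counts ranged from 1196069 to 4145069 per library, with more in P301S (2923580 ± 809065, SD, n = 6) than in NonTg (2045919 ± 825124, SD, n = 6) and overlapping ranges. Of 10022 genes that passed the filter on low counts, edgeR's quasi-likelihood test called 388 at an adjusted p under 0.05, or 3.87%. Of all genes tested 2.37% rose and 1.50% fell in P301S. The summed level of 9 microglia markers in CPM (counts scaled by library size) was 11079 to 14686 in NonTg and 5694 to 7898 in P301S, and 5 of the 9 fell, among them Siglech, P2ry12 and Cx3cr1 (log2 fold changes -1.66 ± 0.17, -2.02 ± 0.25 and -1.24 ± 0.17, SE, edgeR adjusted p = 2.38e-07, 3.73e-06 and 2.91e-05). The sums of neuron, astrocyte and oligodendrocyte markers overlapped between the groups (neuron 97.6 to 292 in NonTg and 68.3 to 270 CPM in P301S, astrocyte 136 to 851 and 163 to 741, oligodendrocyte 184 to 285 and 183 to 487). Of 7 astrocyte markers tested Gfap rose and 6 were not called, with a median log2 fold change of -0.06. In sorted cells measured in bulk, fewer cells of a type and less of an RNA per cell cannot be told apart.

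The mitochondrial genes fell into a measured and a nearly unmeasured set, by position. The bounds used here are the ends of the nuclear copies described below, not a split found from the counts. Between bases 6381 and 11042 of the mitochondrial genome (GRCm38), 6 mRNA genes lie wholly inside: mt-Co2 and mt-Co3 of complex IV, mt-Atp8 and mt-Atp6 of complex V, and mt-Nd3 and mt-Nd4l of complex I. None of these had more than 38 counts in any library, and their mean levels per length were 0.37 to 2.08 adjusted RPKM (reads per kilobase of gene model and depth, adjusted by the authors' size factors). The 5 mRNA genes wholly outside, mt-Nd1, mt-Nd2, mt-Nd5, mt-Nd6 and mt-Cytb, had 13491 to 313145 counts per library and 4382 to 7765 adjusted RPKM. The 2 genes that straddle an edge, mt-Co1 with 31.8% of its bases inside and mt-Nd4 with 63.6%, had 3093 and 4311 adjusted RPKM.

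This stretch of 4662 bases has a copy in the nuclear genome at chr1:24611535-24616197 (GRCm38, 4663 bases), which GENCODE M21 annotates as 7 unprocessed pseudogenes on the minus strand. All 681 compared bases of mt-Co2, 783 of mt-Co3, 678 of mt-Atp6, 294 of mt-Nd4l and the first 876 of mt-Nd4 are identical in the copies, and mt-Nd3 differs at 1 of 345. The mt-Co1 copy starts at base 1054 of the gene and is identical from base 1067 to base 1545, the gene's last. The deposited counts hold uniquely aligned reads only, per the file headers, and whether reads from the stretch were set aside for aligning to both places was not tested. None of the gene numbers with a RefSeq match lies at these copies. The following stretches of 90 bases, from GENCODE M21 and written 5′ to 3′ along the gene, show the edge of the copied stretch in mt-Co1 (MT:6381-6470 and chr1:24616108-24616197), with the identical run in capitals.
mt-Co1: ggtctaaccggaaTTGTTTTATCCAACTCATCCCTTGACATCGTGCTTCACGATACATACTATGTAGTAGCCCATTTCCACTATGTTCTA
Gm29216: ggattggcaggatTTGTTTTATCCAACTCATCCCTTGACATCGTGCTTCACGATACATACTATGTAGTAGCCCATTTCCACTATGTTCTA

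The start of mt-Co2 (MT:7013-7102) and its copy (chr1:24615476-24615565) show a gene with no difference, and identical bases are again in capitals.
mt-Co2: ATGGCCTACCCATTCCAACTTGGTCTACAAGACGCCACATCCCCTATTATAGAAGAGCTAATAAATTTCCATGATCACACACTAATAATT
Gm28661: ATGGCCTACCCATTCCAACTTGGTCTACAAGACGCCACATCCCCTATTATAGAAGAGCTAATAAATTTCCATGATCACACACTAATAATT

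The start of mt-Nd3 (MT:9459-9548) and its copy (chr1:24613030-24613119) show the gene's single difference, T3C counted from its first base, here in capitals.
mt-Nd3: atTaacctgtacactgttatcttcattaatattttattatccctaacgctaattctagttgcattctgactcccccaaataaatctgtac
Gm28438: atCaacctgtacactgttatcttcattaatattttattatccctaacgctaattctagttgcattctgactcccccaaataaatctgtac

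**Figure D1:**
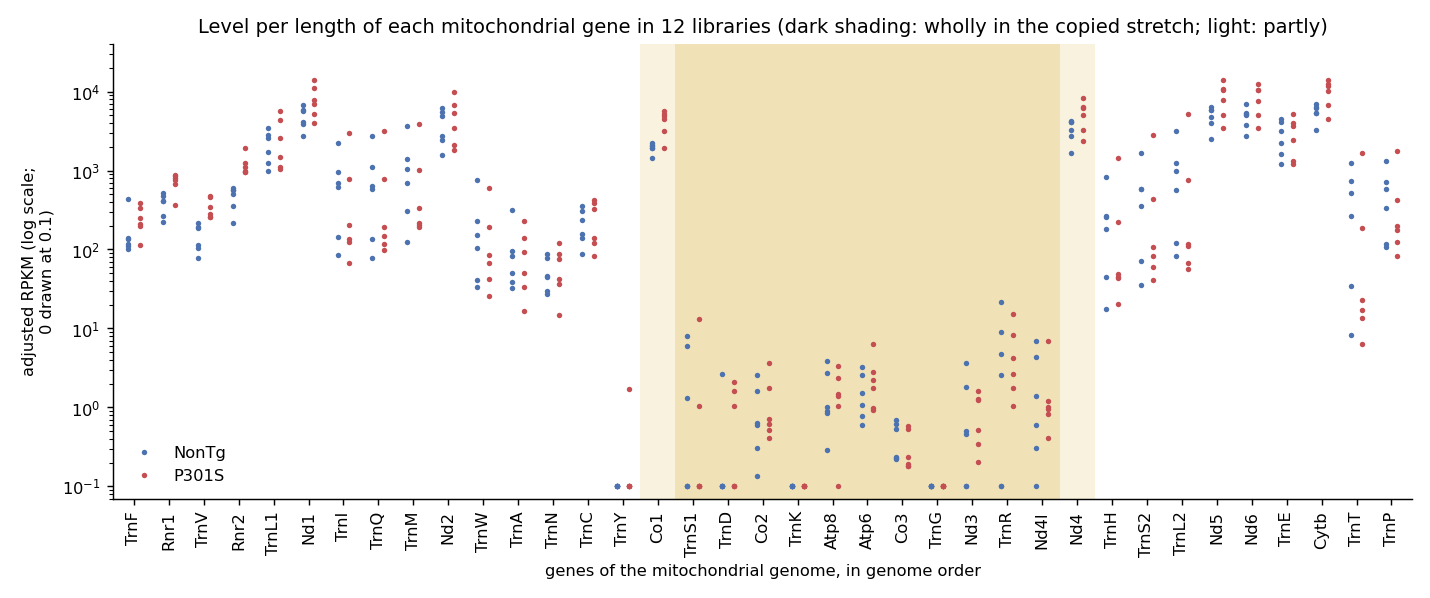
Adjusted RPKM (log axis, 0 drawn at 0.1) of the 37 mitochondrial genes in genome order, with 1 point per library (NonTg blue, P301S red, 6 each). The genes wholly inside the copied stretch (dark shading) lie orders of magnitude below the mRNA genes outside it in both genotypes, mt-TrnY lies as low just outside, and the straddling mt-Co1 and mt-Nd4 (light shading) stay near the outside genes.

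The stretch was bounded by annotated copies that were found through 50-base windows shared with mitochondrial genes. Among the mRNA genes other than mt-Atp8, the share of such windows found in another annotated gene therefore followed the same division by construction. It was 100% for mt-Co2, 99.9% for mt-Co3, 99.5% for mt-Atp6, 98.8% for mt-Nd4l and 98% for mt-Nd3, against 51.1% for mt-Co1, 62.2% for mt-Nd4, 8.19% for mt-Nd2 and 7.61% for mt-Nd5, and 0% for mt-Nd1, mt-Nd6 and mt-Cytb. mt-Atp8 lies between annotated copies and scores 0% by this measure. The 5 tRNA genes inside the stretch (mt-TrnS1, mt-TrnD, mt-TrnK, mt-TrnG and mt-TrnR) had at most 8 counts in a library and also score 0%. One tRNA gene outside went against the division, since mt-TrnY had 0 counts in 11 libraries and 1 in the other. The tables therefore hold next to no reads for the mitochondrial subunits of complex V, and those of complex IV are represented by mt-Co1 alone.

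The mitochondrial genome as a whole took a larger part of the P301S libraries. Its share of all counts was 14.6%, 14%, 18.3%, 19.2%, 16.8% and 10% in NonTg libraries 1 to 6, and 15%, 28.8%, 30.8%, 32.1%, 24.9% and 18.7% in P301S libraries 1 to 6. In P301S, 4 libraries lay above the highest NonTg library, while P301S 6 and P301S 1 lay within the NonTg range. The mean difference was 9.54 percentage points, against SDs of 3.36 in NonTg and 6.91 in P301S (n = 6 each).

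The mean share of the nuclear members differed between genotypes by less than the spread between libraries. Together they took 0.0734% ± 0.0107 of counts in NonTg and 0.0731% ± 0.0163 in P301S (SD, n = 6 each). The lowest share was in NonTg 1 (0.0522%) and the highest in P301S 1 (0.0992%), and the ranges overlapped. P301S 2, P301S 3 and P301S 4, which had the highest mitochondrial shares, had the lowest nuclear shares of their group (0.057%, 0.0583% and 0.0647%). Since shares of 1 total are tied to each other, the nuclear members were also set against the counts that are not mitochondrial, of which they made up 0.0871% ± 0.0138 in NonTg and 0.0968% ± 0.0137 in P301S, again with overlap.

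Mitochondrial mRNA counts per count of the nuclear members were 124 to 266 in NonTg and 138 to 502 in P301S. On the log2 scale this ratio was 8.05, 7.45, 7.84, 7.84, 7.62 and 6.95 in NonTg libraries 1 to 6 and 7.11, 8.92, 8.97, 8.86, 8.21 and 7.79 in P301S libraries 1 to 6. It was higher in P301S by 0.68 on average (SDs 0.39 and 0.75), with 4 P301S libraries above all NonTg libraries and P301S 1 near the bottom of the NonTg range. With the 5 mRNA genes outside the copied stretch alone the difference was 0.65.

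**Figure D2:**
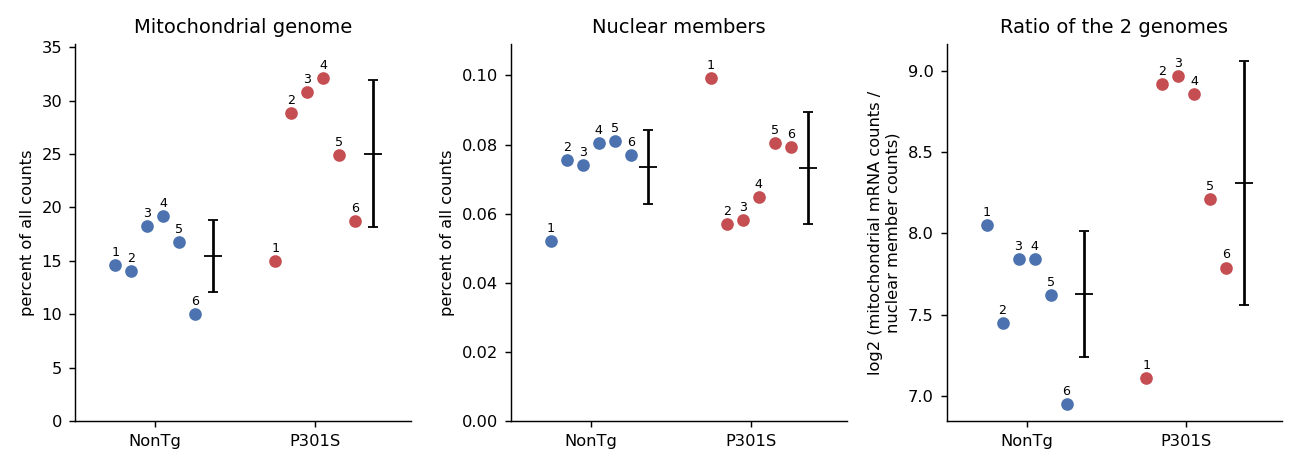
Share of all counts on the mitochondrial genome, share on the nuclear members, and log2 ratio of mitochondrial mRNA counts to nuclear member counts, for each of 12 libraries (points, numbered by library) with mean ± SD (bars, n = 6). P301S 2 to 5 lie above all NonTg libraries in the left and right panels, and the nuclear shares of both genotypes overlap.

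Split by complex, the ratio is read within each complex and not between them, since gene lengths and the missing genes differ. For complex I the log2 ratio was 8.70 ± 0.41 in NonTg and 9.39 ± 0.96 in P301S, with 3 P301S libraries above the NonTg range. For complex III, where mt-Cytb is the sole mitochondrial subunit, it was 9.44 ± 0.98 and 9.93 ± 1.0, and for complex IV, in effect mt-Co1, 8.01 ± 0.79 and 8.34 ± 0.74 (SD, n = 6 each), each with 1 P301S library above the NonTg range. The differences of 0.48 and 0.33 were smaller than the spread within either group. For complex V the mitochondrial genes had 6 to 44 counts per library against 214 to 785 for the nuclear ones, so no ratio was formed.

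Among single mitochondrial genes, 26 of 37 passed the filter on low counts, 4 rose and none fell in P301S, where 2.37% of all genes tested rose. The 4 were both rRNA genes, mt-Co1 and mt-TrnV. At an unadjusted p under 0.05 there were 9, all higher in P301S, but no share over all genes was taken at that threshold. DESeq2 called 5, where it called 742 of the 10022 genes tested, 405 of them higher. The median log2 fold change of the 26 was 0.29, against -0.02 for all genes tested.

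mt-Rnr2 (Entrez 17725, MT:1094-2675), which encodes the RNA of the large mitochondrial ribosomal subunit, was at 1558, 3743 and 4135 CPM (lowest, median, highest) in NonTg and at 6756, 7368 and 13055 CPM in P301S. All 6 P301S libraries lay above all 6 NonTg libraries, which held for 2.24% of genes tested, while 1.05% lay wholly below. The log2 fold change was 1.35 ± 0.21 (SE, n = 6 each, edgeR adjusted p = 0.00017).

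mt-Rnr1 (Entrez 17724, MT:70-1024), for the small subunit, was at 943, 1758 and 2207 CPM in NonTg and at 1563, 3286 and 3619 CPM in P301S. Its groups overlapped through P301S 1, the lowest of its group, and the log2 fold change was 0.88 ± 0.20 (SE, edgeR adjusted p = 0.0103). The call was lost with limma voom (adjusted p = 0.071) and with limma on deposited RPKM (0.0565). Both rRNAs together took 0.479% ± 0.125 of counts in NonTg and 1.08% ± 0.127 in P301S (SD, n = 6 each), with no overlap.

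mt-TrnV (Entrez 17745, MT:1025-1093), the valine tRNA gene between the rRNA genes, was at 24.2, 46.4 and 65.7 CPM in NonTg and at 78, 96.9 and 149 CPM in P301S. Its groups did not overlap, and it rose with a log2 fold change of 1.23 ± 0.32 (SE, edgeR adjusted p = 0.0261). Without NonTg 1, NonTg 6 or P301S 3 the adjusted p was 0.0543, 0.0645 or 0.0722. The tRNA genes at the ends of the rRNA genes, mt-TrnF (0.55 ± 0.38, adjusted p = 0.541) and mt-TrnL1 (0.33 ± 0.47, adjusted p = 0.818), were not called.

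mt-Co1 (Entrez 17708, MT:5328-6872) encodes the catalytic subunit of complex IV. It was at 10207, 13704 and 15046 CPM in NonTg and at 13377, 31564 and 39558 CPM in P301S. The NonTg libraries were close together, and 5 P301S libraries lay above all of them, with P301S 1 among them. The log2 fold change was 1.12 ± 0.19 (SE, edgeR adjusted p = 0.000504), and limma voom gave an adjusted p of 0.101.

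mt-Cytb (Entrez 17711, MT:14145-15288), the cytochrome b of complex III, was at 16980, 29390 and 35212 CPM in NonTg and at 23372, 55888 and 69750 CPM in P301S. Its log2 fold change of 0.83 ± 0.23 did not pass (edgeR adjusted p = 0.0517). It passed with DESeq2 (adjusted p = 0.0299), with the total count as a covariate (0.0176) and without P301S 1 (0.00119), among 7 alternatives of 20, over which the adjusted p ranged from 0.000196 to 0.253.

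**Figure D3:**
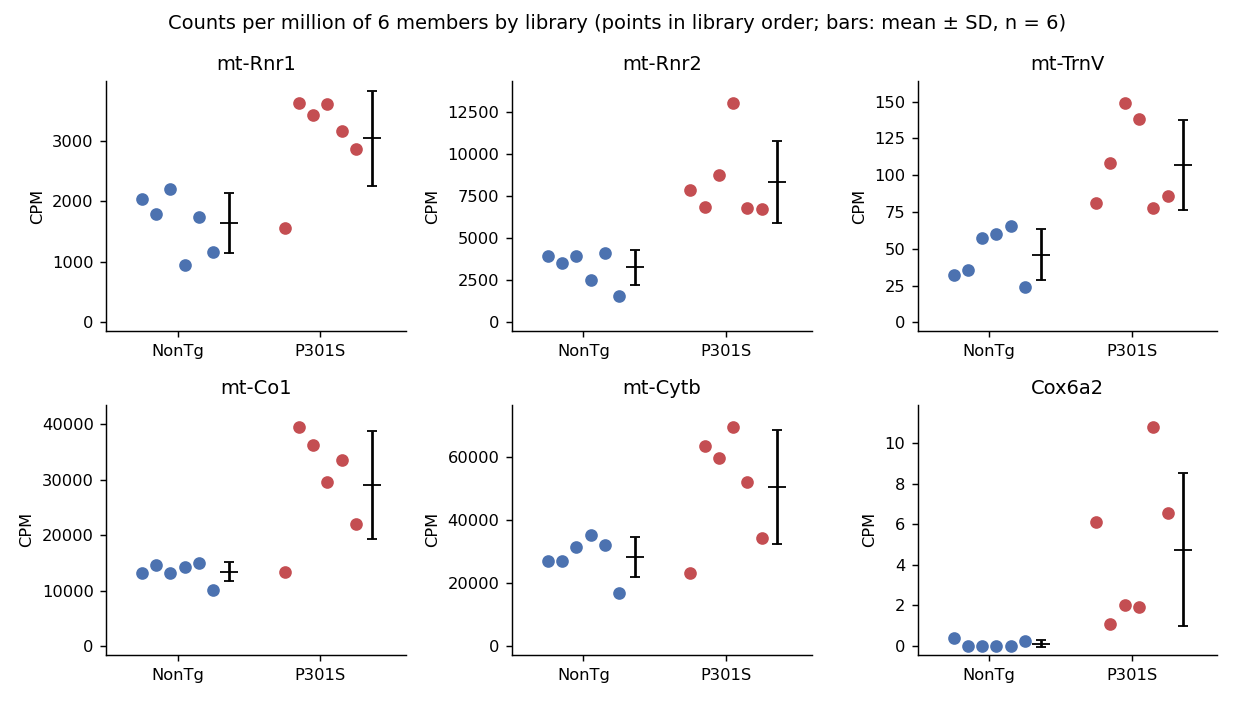
CPM of mt-Rnr1, mt-Rnr2, mt-TrnV, mt-Co1, mt-Cytb and Cox6a2 in each library (points in library order within a genotype, NonTg blue, P301S red) with mean ± SD (bars, n = 6). mt-Rnr2, mt-TrnV and Cox6a2 do not overlap between genotypes, and P301S 1 is the lowest P301S library for mt-Rnr1, mt-Co1 and mt-Cytb.

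The complex I genes outside or at the edge of the copied stretch, which encode membrane subunits of that complex, had fold changes above 0 and were not called. mt-Nd5 went from 39474 ± 11228 to 69545 ± 31313 CPM (SD, n = 6 each), a log2 fold change of 0.82 ± 0.32 with an edgeR adjusted p of 0.223. The log2 fold changes of mt-Nd6 (0.77 ± 0.29), mt-Nd1 (0.76 ± 0.29) and mt-Nd4 (0.65 ± 0.29) were of like size, with adjusted p-values of 0.196, 0.199 and 0.296, and that of mt-Nd2 was smaller (0.33 ± 0.47, adjusted p = 0.825). In each of these the groups overlapped. Reads of mt-Nd6, which lies on the other strand, cannot be told from antisense reads of the same place, because the strandedness of the libraries is not given in the sources used here.

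The number of genes that passed differed between analyses. Without P301S 1, 7 mitochondrial genes rose, the same 4 with mt-Cytb, mt-Nd5 (adjusted p = 0.0396) and mt-Nd6 (0.0219). Over all genes, 182 to 242 were called higher with a library left out. With the total count as a covariate 7 rose, the same 4 with mt-Cytb, mt-Nd1 (0.00062) and mt-Nd4 (0.0401), where 166 of the 10022 genes tested rose. By contrast limma voom called mt-Rnr2 and mt-TrnV alone, where 274 of the 10022 rose.

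The make-up of the mitochondrial mRNA was otherwise steady for some genes and not for others. mt-Nd5 was 24.9% to 27.5% of the counts of mitochondrial mRNA genes in NonTg and 25% to 29% in P301S, and mt-Nd1 averaged 13.5% in both genotypes. mt-Nd2 was 11.3% ± 2.71 in NonTg and 8.18% ± 1.97 in P301S, and mt-Co1 9.32% ± 2.07 and 11.8% ± 2.3 (SD, n = 6 each). Counts of mt-Co1 per 100 of mt-Nd2 were 47.1 to 137 in NonTg and 67.8 to 223 in P301S, with overlap. Both rRNAs made 3.35 ± 0.883 counts per 100 mRNA counts in NonTg and 4.96 ± 1.87 in P301S, where P301S 1 was highest with 8.3. That library also had the highest mt-Rnr2 per mt-Rnr1, 5.04 counts.

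Per length the rRNAs were below the mRNAs, with 828 adjusted RPKM for mt-Rnr2 and 552 for mt-Rnr1 against at least 3093 for every mRNA gene with reads outside the copied stretch. How the libraries were prepared, and whether polyadenylated RNA was selected, is not given in the sources used here.

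The tRNA genes varied widely between libraries of both genotypes. Of 22, 16 passed the filter, 1 rose (mt-TrnV) and none fell, with a median log2 fold change of 0.05 and a range from -0.60 to 1.23. They took 0.955%, 1.72%, 3.92%, 2.35%, 2.15% and 1.28% of mitochondrial counts in NonTg libraries 1 to 6 and 0.86%, 0.844%, 1.43%, 2.51%, 0.672% and 0.734% in P301S libraries 1 to 6. The 4 highest values, in NonTg 3, P301S 4, NonTg 4 and NonTg 5, belonged to the 4 libraries with the fewest counts (1196069, 2000223, 1464222 and 1370144). The median was 1.94% in NonTg and 0.852% in P301S, with 4 P301S libraries below the NonTg range. Of all counts the tRNA genes took 0.34% ± 0.223 in NonTg and 0.32% ± 0.264 in P301S (SD, n = 6 each).

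The variation came in groups of neighbours. mt-TrnT (threonine) ranged from 1.93 to 482 CPM, a ratio of highest to lowest of 250, mt-TrnL2, mt-TrnH and mt-TrnS2 had ratios of 87.2, 79.4 and 78.2, and mt-TrnI, mt-TrnQ and mt-TrnM had 42.2, 39.2 and 30. For mt-TrnV, mt-TrnC, mt-TrnE and mt-TrnF the ratio was 6.16, 4.94, 4.27 and 4.2, and for the mRNA genes outside the stretch 4.11 to 5.88. mt-TrnT counts per 1000 of the adjoining mt-Cytb were 0.0898, 2.97, 11.7, 6.17, 4.78 and 0.616 in NonTg libraries 1 to 6 and 0.0825, 0.0639, 0.93, 6.91, 0.0976 and 0.198 in P301S libraries 1 to 6. High and low libraries occurred in both genotypes, with medians of 3.88 in NonTg and 0.148 in P301S. By contrast mt-TrnE (glutamate), on the other strand beside mt-Nd6, had 56 to 106 counts per 1000 of mt-Nd6 in NonTg and 34.6 to 54.7 in P301S, and these ranges did not overlap, while its CPM did (log2 fold change 0.08 ± 0.41, adjusted p = 0.957).

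**Figure D4:**
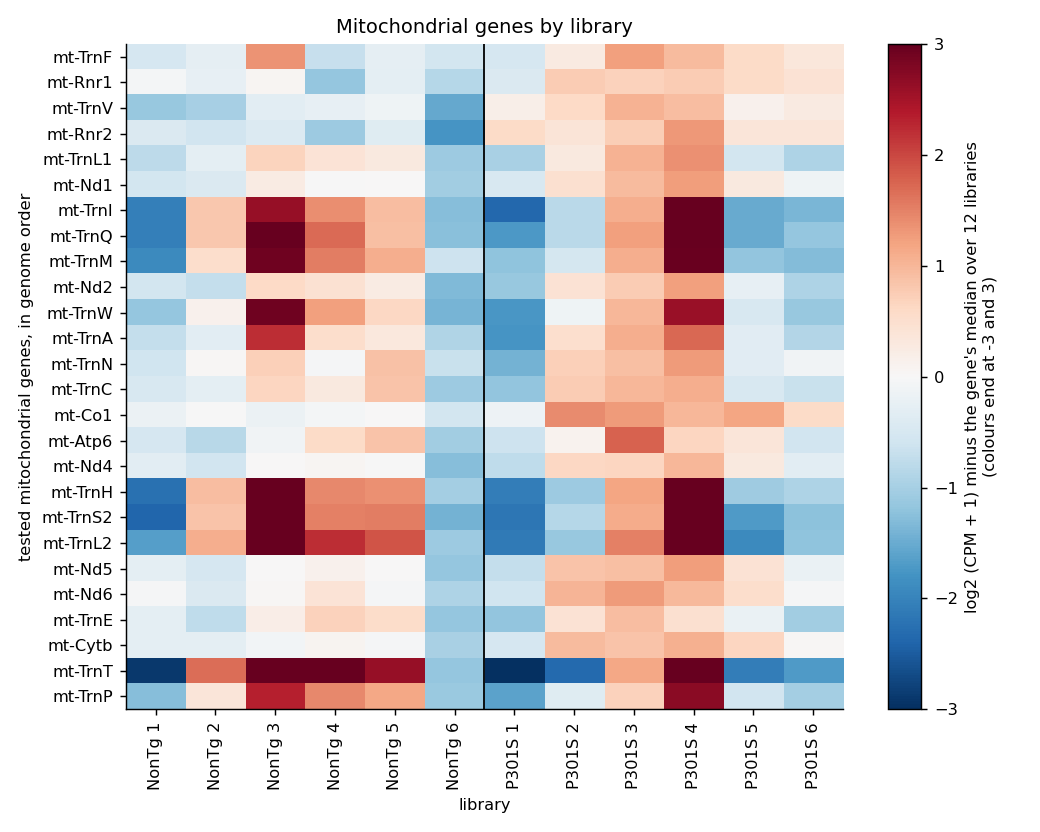
Log2 of CPM + 1 of the 26 tested mitochondrial genes in each library, less the median of the gene over 12 libraries (red above, blue below, colours end at -3 and 3). mt-Rnr2 and mt-TrnV are above their medians in all P301S libraries, while the tRNA groups around mt-TrnI, mt-TrnL2 and mt-TrnT are highest in NonTg 3 and P301S 4.

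The nuclear members were measured far less deeply. All 99 together had 21656 counts in 12 libraries, against 6103244 for the mitochondrial genes, 45 had under 100 counts in all, and 4 (Cox7b2, Cox8b, Cox8c and Ndufs5) had none. The filter was passed by 44. None was called by edgeR, where 3.87% of all genes tested were, and none by DESeq2, which called 742 of the 10022 genes tested. An unadjusted p under 0.05 was found for 3, without a share over all genes to set beside it. Of the 44, 23 had a log2 fold change above 0 and 21 below, with a median of 0.15, and no group ranges were apart. In data simulated with the depth and spread of all 10022 genes tested, edgeR called 9 of 100 genes changed 2-fold and 45 of 100 changed 4-fold. The changed genes were drawn from all genes tested, so the rate for the nuclear members alone was not measured. Changes of such a size could have gone uncalled.

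The highest nuclear levels per length were those of the catalytic head of ATP synthase, Atp5b (7.65 adjusted RPKM) and Atp5a1 (6.96), then Atp5e (5.57), the complex IV subunit Cox4i1 (4.66) and the complex I subunit Ndufa2 (4.2). The lowest of the mitochondrial mRNA genes outside the copied stretch, mt-Nd2, stood at 4382 adjusted RPKM.

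In complex I, 17 of 39 members were tested, and their median log2 fold change was -0.06. Ndufa10, an accessory subunit of the membrane arm, was at 1.22, 15.6 and 47.7 CPM (lowest, median, highest) in NonTg and at 2.17, 4.84 and 14 CPM in P301S. These ranges overlapped at a log2 fold change of -1.68 ± 0.70 (SE, edgeR adjusted p = 0.217). Ndufv3, an accessory subunit beside the NADH site, was at 0.713, 8.54 and 9.42 CPM in NonTg and at 5.1, 20.1 and 24.7 CPM in P301S, with overlap (1.37 ± 0.65, adjusted p = 0.303). The core subunit Ndufs1 went from 17.6 ± 11.3 to 35.2 ± 16.7 CPM (1.0 ± 0.50, adjusted p = 0.336).

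Complex II, which oxidises succinate and has no mitochondrially encoded subunit, had 3 of 4 members tested. Its flavoprotein gene Sdha went from 46.7 ± 26.9 to 57.9 ± 33.8 CPM (log2 fold change 0.32 ± 0.43, edgeR adjusted p = 0.81), and Sdhb and Sdhc had 0.32 ± 0.67 and 0.47 ± 0.67. In complex III, 5 of 8 were tested with a median of 0.47. The small subunit gene Uqcr10 went from 4.64 ± 3.55 to 8.9 ± 3.01 CPM (0.92 ± 0.75, adjusted p = 0.634), the core subunits Uqcrc1 and Uqcrc2 had 0.73 ± 0.83 and -0.10 ± 0.64, and Uqcrh had 0.47 ± 0.70. None of these genes was called.

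In complex IV, 4 of 20 were tested and their median was 0.58. Cox7a2l, known for joining complexes III and IV into supercomplexes, went from 7.91 ± 4.93 to 15.5 ± 5.77 CPM (log2 fold change 0.95 ± 0.62, edgeR adjusted p = 0.504). Cox8a had 0.80 ± 0.76, Cox4i1 0.36 ± 0.73 and Cox6a1 0.14 ± 0.73. Summed over all 20 genes, the nuclear complex IV level was 55.6 ± 23.6 CPM in NonTg and 85.3 ± 14.7 in P301S (SD, n = 6 each), with 2 P301S libraries above the NonTg range. The mean sums were lower in P301S for nuclear complex I (257 to 247 CPM), complex V (225 to 208) and the assembly factors (92.7 to 75.1). They were higher for complex II (74.2 to 85.2) and nuclear complex III (44.7 to 50.7). All these sums overlapped between the groups.

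The isoform pairs of complex IV differed in whether they were detected. Cox4i2, Cox7a1 and Ndufa4l2 had 1, 3 and 3 counts over all 12 libraries, beside 513 for Cox4i1, 110 for Cox7a2 and 137 for Ndufa4. Cox6b1 had 33 counts in NonTg and 61 in P301S. Cox6b2, the form of Cox6b known from testis, had 0 counts in NonTg and 19 in P301S, 12 of them in P301S 6 and none in 3 libraries.

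Cox6a2, the form of Cox6a known from heart and skeletal muscle, had 1, 0, 0, 0, 0 and 1 counts in NonTg libraries 1 to 6 and 19, 4, 4, 3, 34 and 24 in P301S libraries 1 to 6. All P301S libraries were above all NonTg libraries in CPM, at 1.08, 4.07 and 10.8 CPM (lowest, median, highest) against at most 0.406 CPM. The gene did not pass the filter on low counts, and without a filter it was not called (edgeR adjusted p = 0.0779). The 88 counts against 2 make a ratio per total count of 30.8, with a 95% exact interval from 8.27 up to 258 for counting error alone. It was the only one of 66 untested members whose group ranges were apart. Among genes tested, 2.24% lay wholly higher in P301S and 1.05% wholly lower, and no such share was taken over all untested genes.

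Cox6a2 (Entrez 12862) lies at chr7:128205435-128206366, on the strand opposite to the integrin gene Itgad, whose RefSeq end it overlaps by 70 bases, and 54777 bases beyond the end of the integrin gene Itgax. Itgad had 63 counts in NonTg and 194 in P301S (log2 fold change 1.38 ± 0.85, edgeR adjusted p = 0.469). Itgax rose from 11.4 ± 8.37 to 332 ± 63.5 CPM (SD, n = 6 each, 4.88 ± 0.41, adjusted p = 1.21e-08), while Itgam, the next integrin gene and the gene of the sorting antigen Cd11b, fell from 1869 ± 286 to 1250 ± 135 CPM (-0.58 ± 0.15, adjusted p = 0.0264). Without strand, reads of Cox6a2 and of Itgad cannot be told apart where they overlap.

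In complex V, 11 of 17 were tested with a median log2 fold change of -0.20. Atp5e, the epsilon subunit of the rotor stalk, was at 0.914, 4.44 and 14.5 CPM in NonTg and at 7.61, 15.7 and 21.9 CPM in P301S. Its groups overlapped through NonTg 2 (14.5 CPM), and the log2 fold change of 1.51 ± 0.69 was not called (edgeR adjusted p = 0.276), although limma on deposited RPKM gave an adjusted p of 0.0213. The head subunits Atp5b and Atp5a1 went from 72.7 ± 20 to 55.1 ± 24.9 CPM (-0.40 ± 0.37) and from 82.3 ± 46.7 to 68.2 ± 22.2 CPM (-0.27 ± 0.35), with adjusted p-values of 0.681 and 0.796. Atp5d and Atp5h had 0.94 ± 0.69 and -0.97 ± 0.68. Of the genes that encode the same c-ring subunit, Atp5g3 was tested (0.53 ± 0.64, adjusted p = 0.779), and Atp5g1 and Atp5g2 had 12 and 14 counts in all.

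Of 11 assembly factors 4 were tested, all with a log2 fold change below 0 and none called: Ndufaf4 (-0.82 ± 0.51, edgeR adjusted p = 0.478), Ndufaf6, Ndufaf7 and Uqcc1. Ndufaf1, which helps to build the membrane arm of complex I, was not tested in the fit of all libraries, with 95 counts in NonTg and 12 in P301S. It was at 1.22, 6.08 and 21.4 CPM in NonTg and at 0, 0.481 and 2.55 CPM in P301S, with overlap, and it passed both filter and threshold when NonTg 1 or P301S 3 was left out. With all libraries Ndufaf1 was not called without a filter (edgeR adjusted p = 0.117) or with a filter of 1 CPM in 6 libraries (0.109). It was named after its values were seen.

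**Figure D5:**
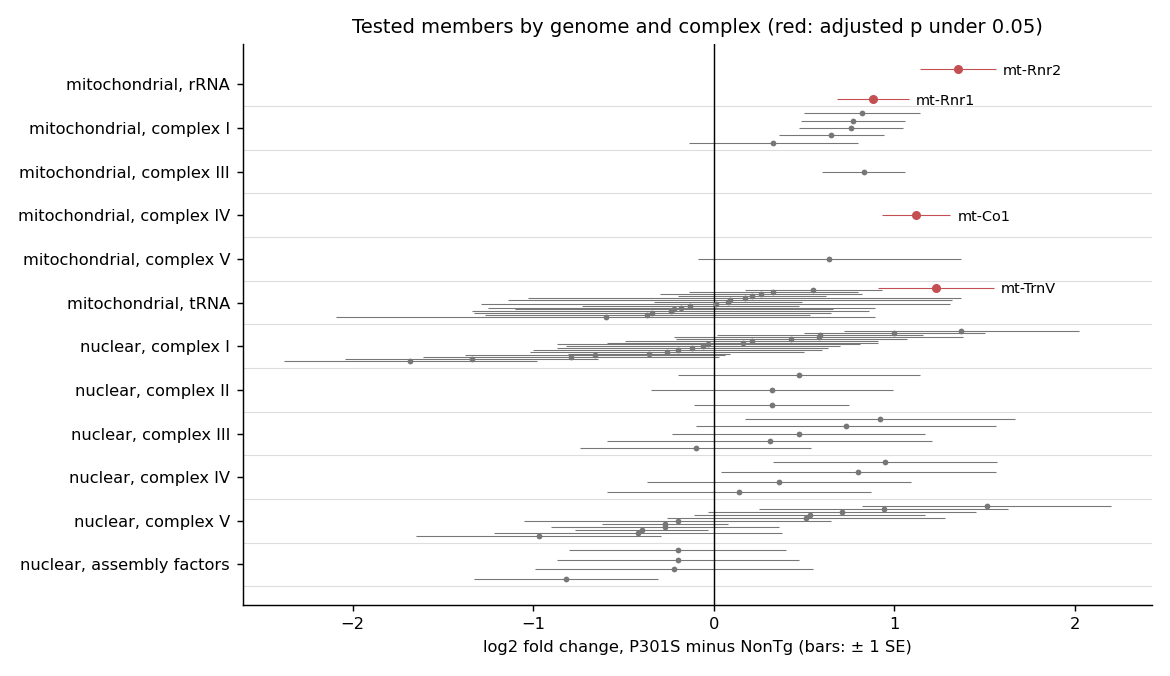
Log2 fold changes (P301S minus NonTg, points, with bars of 1 SE) of the 70 tested members by genome and complex, with those called by edgeR at an adjusted p under 0.05 in red. The tested mitochondrial mRNA and rRNA genes all lie above 0, 4 mitochondrial genes are called, and the nuclear members lie on both sides of 0 with wider errors and no call.

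Nuclear members that share more sequence with other genes had lower levels. GENCODE M21 transcripts were found for 96 of 99. In 11 of them at least 20% of 50-base windows also occur in another gene, mostly a processed pseudogene. These had a median of 0.381 adjusted RPKM, 2 of 11 were tested, and the highest, Atp5h, reached 1.54. The 28 with a smaller share had a median of 1.18 with 12 tested, and the 57 with none had 1.29 with 29 tested. Atp5l had 68.5% of windows shared and 8 counts in all, Uqcrb 43.2% and 13 counts, and Ndufs5 21.7% and no count. Only unique reads were counted, and whether this lowered their counts was not tested. Cox7b2, Cox8b and Cox8c shared 0% of windows and had no count either.

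The share of nuclear members that could be tested was higher among longer genes. Of those with a gene model under 700 bases, 30% were tested, of those from 700 to under 1500 bases 42.4%, and of those of 1500 bases or more 81.8%. Among all nuclear protein-coding genes with a count these shares were 10.5%, 15.5% and 54.1%. The median level per length of the members was 1.04, 0.883 and 1.52 adjusted RPKM in these classes, and that of all such genes 0.274, 0.172 and 0.461.

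None of the tested genes of the wider mitochondrial lists was called by edgeR. DESeq2, which called 742 of the 10022 genes tested, called Ppargc1b, Optn, Ucp2 and Mrpl13 (adjusted p = 0.0221, 0.012, 0.0383 and 0.0372). At an unadjusted p under 0.05 edgeR gave 1 gene of RNA processing, 2 regulators, 2 import genes, 3 of mitophagy and uncoupling and 2 ribosomal protein genes. These counts have no share over all genes beside them. Of 17 genes for transcription and maintenance of mitochondrial DNA, 13 were tested, with a median log2 fold change of -0.40, and Ssbp1, the single-stranded DNA-binding protein of the mitochondrion, had the smallest p (-0.62 ± 0.36, edgeR adjusted p = 0.433). Of 19 genes for mitochondrial RNA processing and decay 16 were tested with a median of 0.01 (smallest p for Fastkd2, 1.57 ± 0.73, adjusted p = 0.283), and of 78 mitochondrial ribosomal protein genes 29 were tested with a median of -0.16. Mrpl13 was lowest in p among the latter (8.73 to 1.41 CPM, -2.61 ± 0.85, adjusted p = 0.0843). Across all genes tested the median was -0.02.

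Of 12 nuclear regulators of respiratory genes 11 were tested with a median of -0.32. Ppargc1b, a coactivator of mitochondrial gene programmes, went from 2.16 to 14.8 CPM (log2 fold change 2.68 ± 0.87, edgeR adjusted p = 0.0825), and its groups did not overlap (at most 7.31 CPM in NonTg and at least 8.36 in P301S). The citric acid cycle had 14 of 15 tested with a median of -0.21, electron carriers and ATP export 13 of 21 with 0.03, import and membrane genes 14 of 18 with 0.13, and assembly factors outside the rule 19 of 33 with -0.19. In these lists the smallest p belonged to Idh3b of the cycle (0.93 ± 0.47, edgeR adjusted p = 0.342), Coq9 of coenzyme Q synthesis (1.03 ± 0.72, 0.546), the prohibitin gene Phb2 (1.47 ± 0.62, 0.223) and the complex IV assembly gene Cox20 (-1.14 ± 0.62, 0.386). Mitophagy and uncoupling genes had 7 of 10 tested with a median of 0.35, among them Ucp2, the uncoupling protein known from immune cells, which went from 92.3 to 194 CPM (1.06 ± 0.33, adjusted p = 0.0636), and the mitophagy receptor gene Optn (2.54 ± 0.79, adjusted p = 0.0673), named after its values were seen.

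Other measures moved between the genotypes beside the mitochondrial share. Malat1, a long RNA kept in the nucleus, took 14.7% ± 2.39 of counts in NonTg and 9.51% ± 1.04 in P301S (SD, n = 6 each) without overlap and fell by 0.59 on the log2 scale (SE 0.15, edgeR adjusted p = 0.0162), and Meg3 fell by 0.96 (SE 0.23, adjusted p = 0.0115). Of 8 long nuclear RNAs tested these 2 fell and none rose. The summed microglia markers did not overlap, as given above. The difference in the mitochondrial share was 9.54 percentage points with Malat1 in the totals and 9.45 with it left out. The part of cell make-up, RNA quality and the ratio of nuclear to cytoplasmic RNA in the mitochondrial values was not tested.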

How the data were processed

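The authors deposited a table for each of 12 libraries, with uniquely aligned reads per gene model as counts and, beside them, RPKM adjusted by a size factor of the sample (both per the file headers). GSNAP and build GRCm38 are named in the submitters' processing notes. Not given in the sources used here are the aligner's version, how reads were counted, the annotation release, the library kit and strandedness. Depth was 1196069 to 4145069 counts per library, and counting intervals cover counting error only.

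Gene numbers were matched to a RefSeq table of GRCm38.p6 (31049 of 36528, 85.0%), and unmatched numbers, 1.56% to 3.15% of counts, were kept. Genes passing filterByExpr (minimum count 10) were scaled by TMM and tested over the whole table with edgeR 4.0.16 (quasi-likelihood, robust, no covariate), with Benjamini-Hochberg adjustment and a threshold of 0.05. The SE is the log2 fold change over the square root of F, and the biological coefficient of variation was 0.64. CPM use TMM-scaled library sizes of the tested genes. Shares use all counts and have no p-value, being sums over members. Sequences, and shared windows of 50 bases, came from GENCODE M21 transcripts (GRCm38). The test was tried on simulated counts. Alternatives were DESeq2 1.42.0, limma 3.58.1 (voom, and log2 of deposited RPKM plus 1), other scalings and filters, depth as a covariate, and each library left out in turn. Using the 5 mRNA genes outside the copied stretch was added after seeing the data.

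Named were all mitochondrial genes (tRNAs by range), and per nuclear complex the 3 tested members with the smallest p and the 2 highest in RPKM, isoform sets, and per list those past the threshold, at most 3, or else the smallest p. A gene that this rule names is not reported here. The members and lists were chosen with earlier results of these data known. Replicate numbers follow the order of the records and pair nothing. The 23 lists (317 of 318 entries matched) include markers of cell types other than microglia. Summed CPM over NonTg and P301S libraries overlapped for border macrophages (10.1 to 66.7 and 13.2 to 29.4), monocytes (17.8 to 71.4 and 7.93 to 56.6), neutrophils (0.914 to 74.7 and 1.08 to 25.2), lymphocytes (0 to 26.8 and 0 to 4.76), oligodendrocyte precursors (0 to 4.87 and 1.94 to 18.8), endothelium (8.12 to 111 and 27.1 to 82.1), mural cells (5.48 to 21.5 and 0.542 to 9.18), choroid plexus and ependyma (0.812 to 17.7 and 0 to 29.6) and erythroid cells (1.18 to 16.2 and 0 to 5.42). Flt1 rose (log2 fold change 2.99 ± 0.64, edgeR adjusted p = 0.00559) among 3 endothelium markers tested, which had a median of -0.92. Gfap rose (2.65 ± 0.67, 0.0199) among 7 astrocyte markers tested, which had a median of -0.06. Of all genes tested 2.37% rose. With the smallest p of their lists, Mrc1 (-0.74), Ccr2 (-0.46), S100a9 (-0.50), Snap25 (-0.61) and Mbp (1.03) were not called. Also, Cldn5, Nkg7, Gzma, Hba-a1 and Hba-a2 had no count.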

Additional observations from a re-analysis of the deposited data

Results flagged for a closer look

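In 7 of 82 groups of 6 libraries checked, 1 library stood apart from the others by Dixon's criterion, which chance meets in about 1 in 20 groups. The groups checked did not cover all members, so other members can have such a library. For example, mt-TrnT, not among them, had 482 CPM in P301S 4, with 55.6 next in P301S 3. mt-Rnr1 was lowest in P301S 1 with 1563 CPM, where the next P301S library had 2855. mt-Rnr2 was highest in P301S 4 with 13055 CPM, with 8772 next. mt-Atp6, a gene of the copied stretch, was highest in P301S 3 with 19.4 CPM, with 8.39 next. P301S 4 was also highest for the assembly factor genes Ndufaf7 (42.6 CPM, next 18.3) and Ndufaf6 (37.4 CPM, next 12.8). Atp5e was highest among NonTg libraries in NonTg 2 (14.5 CPM, next 5.7). The nuclear members' share of all counts was lowest in NonTg 1, at 0.0522% with 0.0742% next.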

How the results depend on the processing

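The number of genes called higher, 238, was 405 with DESeq2, 411 with no filter on low counts, 166 with the total count as a covariate, and 182 to 242 with a library left out. The number called lower, 150, was 337 with DESeq2, 652 with no filter, 97 with the total count as a covariate, and 91 to 169 with a library left out. Of the calls 61.3% were higher, 54.6% with DESeq2, and 38.7% with no filter, where more genes were called lower than higher. Mitochondrial genes called, 4, were 2 with limma voom, 7 with the covariate, and 3 to 7 with a library left out. Nuclear members called, 0, were 1 with deposited RPKM (Atp5e), and 0 to 1 with a library left out. The differences in the log2 ratio (0.55 to 0.92 with a library left out, 0.46 to 0.70 otherwise) and in the mitochondrial share (8.13 to 11.6 and 6.59 to 9.45 percentage points) kept their sign in all alternatives run. Fold changes of uncalled nuclear members turned sign for Ndufaf7 with the covariate (0.28) and without P301S 3 (0.01), Ndufaf6 without NonTg 1 (0.10), Cox6a1 without NonTg 2, NonTg 5 or P301S 2 (-0.02, -0.06, -0.11), Uqcrc2 without NonTg 4, NonTg 6, P301S 4 or P301S 5 (0.39, 0.03, 0.15, 0.09), Atp5a1 without NonTg 5 (0.08) and Ndufa2 without P301S 5 (-0.04). With a library left out these ranged from -0.82 to 0.01 (Ndufaf7), -0.81 to 0.10 (Ndufaf6), -0.11 to 0.67 (Cox6a1), -0.29 to 0.39 (Uqcrc2), -0.42 to 0.08 (Atp5a1) and -0.04 to 0.62 (Ndufa2). The causes were not tested. Other scalings moved the median of all genes by at most 0.01 (log2, in size). No paired analysis was possible because the labels give the libraries no shared replicate numbers. Low counts left 55 of the 99 nuclear members and 11 of the 37 mitochondrial genes untested.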
